A study of Homo sapiens with 6 samples.

Results

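The epithelial-mesenchymal transition (EMT) genes *SNAI1*, *SNAI2*, *TWIST1*, *TWIST2*, *ZEB1*, *ZEB2*, *CDH1*, *CDH2*, *VIM* and *FN1* were described in BT-549 cells, a human line of triple-negative breast cancer with a mesenchymal appearance. These 10 genes were chosen by symbol, and all 10 were found among the 19792 genes of the deposited table. RNA-seq was performed on BT-549 cells that carried an inducible (tet) shRNA against WDR5. The cells were treated as 3 cultures with vehicle (0.1% DMSO) and 3 cultures with 500 ng/ml doxycycline (DOX), which switches the shRNA on, for 7 days. All 6 cultures carried the shRNA vector, so that an effect of DOX itself cannot be told apart from silencing of WDR5. The study compared DOX with vehicle to ask which genes depend on WDR5, a subunit of the COMPASS histone H3K4 methyltransferases. The deposited values used here are a mean normalized count for each gene, pooled over the vehicle and the DOX libraries. The levels below are therefore those of BT-549 cells of both treatments jointly, and they carry no SD and no test. The difference of any gene between DOX and vehicle was not analysed here.

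EMT is the program by which epithelial cells give up their junctions and take on the shape and movement of mesenchymal cells. The SNAI, TWIST and ZEB proteins are transcription factors that drive it, and the SNAI and ZEB proteins bind E-box sequences to repress epithelial genes, among them *CDH1*. Loss of E-cadherin (*CDH1*), gain of N-cadherin (*CDH2*), the vimentin filament (*VIM*) and secreted fibronectin (*FN1*) are the textbook marks of the completed transition.

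The members spread over a wide range. Between genes, levels were compared as the mean normalized count per kilobase, with the length of the longest coding transcript in GENCODE 44. On this scale the order from high to low was *VIM*, *FN1*, *ZEB1*, *CDH2*, *TWIST1*, *SNAI2*, *ZEB2*, *TWIST2*, *CDH1* and *SNAI1*, and the first level was 2037-fold that of the last. The median of the 10 genes was 700.5 per kilobase, against 71.5 for all genes of the table with a known length, and 8 of the 10 lay above that median. Only *CDH1* and *SNAI1* lay below it. Neighbours in this order have no error of their own in a pooled mean, so that whether they differ beyond a spread between cultures is not known. In a bulk sample, fewer cells that express a gene and less RNA per cell cannot be told apart.

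**Figure D1:**
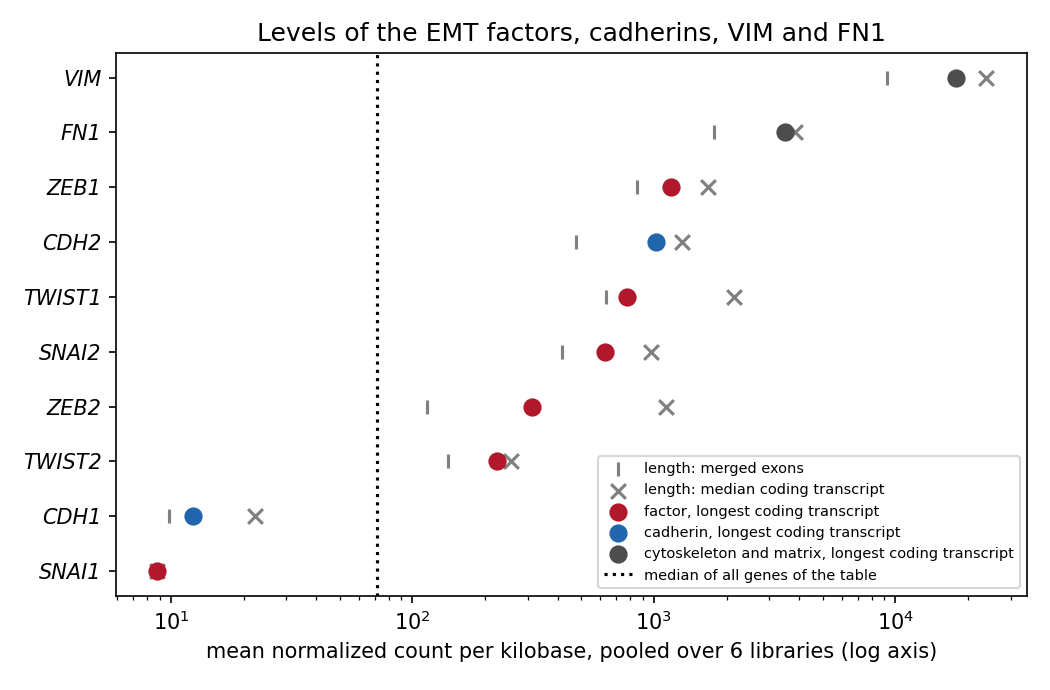
Mean normalized count per kilobase (log axis, pooled over the 6 libraries) of the 10 genes, with coloured points (factors red, cadherins blue, *VIM* and *FN1* dark grey) for the length of the longest coding transcript, grey ticks for merged exons and grey crosses for the median coding transcript. The dotted line is the median of all genes at 71.5, and only *CDH1* (12.4) and *SNAI1* (8.80) lie to its left.

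*ZEB1* was the highest of the 6 transcription factor genes with the longest coding transcript and with merged exons. With the median coding transcript *TWIST1* was above *ZEB1*, at 2142 against 1668 per kilobase. That median is 589 bases for *TWIST1*, against 1630 for its longest coding transcript. It takes every annotated coding transcript, and whether these are complete was not checked, so that this order is uncertain. *ZEB1* encodes a zinc finger and homeodomain repressor and lies on chromosome 10 of GRCh38 from 31318495 to 31529814. Its mean normalized count was 7333, which is rank 674 of all genes, and its level was 1173 per kilobase (92.1 percentile of all genes per kilobase). *ZEB2*, its paralog on chromosome 2 from 144364364 to 144521057, had a mean normalized count of 2993 and a level of 312 per kilobase (73.2 percentile). Per kilobase, *ZEB1* was thus 3.76-fold above *ZEB2*, and *ZEB1* alone held 37.6% of the level summed over the 6 factors. The size of the gap depends on the length assumed, since it was 7.41-fold with merged exons and 1.49-fold with the median coding transcript. The median coding transcript of *ZEB2* is 2677 bases, against 9583 for its longest. *ZEB2* has 37 coding transcripts in GENCODE 44 against 8 for *ZEB1*. The exons of *ZEB1* share 396 bases with the antisense gene *ZEB1-AS1*, which had a mean normalized count of 305, and those of *ZEB2* share 1299 bases with *ZEB2-AS1*, which had 7.58. The library kit keeps strand, but whether the reads were counted by strand is not given in the sources used here.

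The ZEB transcripts are known as targets of the miR-200 family, whose members are high in epithelial cells and repress both genes. The mature sequences are shown because they define the sites in the members, with the seed (bases 2 to 8) in capitals, from RefSeq on GRCh38.p14. The first 3 share the seed AAUACUG and the other two share AACACUG.
hsa-miR-200b-3p: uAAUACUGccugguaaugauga
hsa-miR-200c-3p: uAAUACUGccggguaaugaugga
hsa-miR-429: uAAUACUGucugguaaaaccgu
hsa-miR-200a-3p: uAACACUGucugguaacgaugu
hsa-miR-141-3p: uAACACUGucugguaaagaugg

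Matches to these seeds, CAGTATT and CAGTGTT, were counted on the sense strand of the 3' UTR of the longest coding transcript. *ZEB1* had 9 matches in 2549 bases, 6 of CAGTATT and 3 of CAGTGTT. *ZEB2* had 9 matches in 5370 bases, 5 and 4 of these. Of the 2546 UTRs with a length between 0.8 and 1.25 times that of *ZEB1*, 0.0393% held at least as many matches. The same share was 0.146% of 1374 UTRs for *ZEB2*. Each of these shares counts the UTR of the gene itself. Among the other members, *FN1* had 2 matches and *SNAI2* had 1, whereas *SNAI1*, *TWIST1*, *TWIST2*, *CDH1*, *CDH2* and *VIM* had 0. Of all 15567 UTRs searched, 33.6% held a match. Examples of the sites are given with the match in capitals and the flanking bases in lower case, each read 5' to 3' along the transcript.
ZEB1, chromosome 10, match at 31528507 to 31528513: tgatttttacctatCAGTATTa
ZEB1, chromosome 10, match at 31528797 to 31528803: gagatttgatttaaCAGTGTTa
ZEB2, chromosome 2, minus strand, match at 144388990 to 144388996: gcactacaatgcatCAGTATTa
ZEB2, chromosome 2, minus strand, match at 144389237 to 144389243: gcaaaaattttgtaCAGTGTTa

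**Figure D2:**
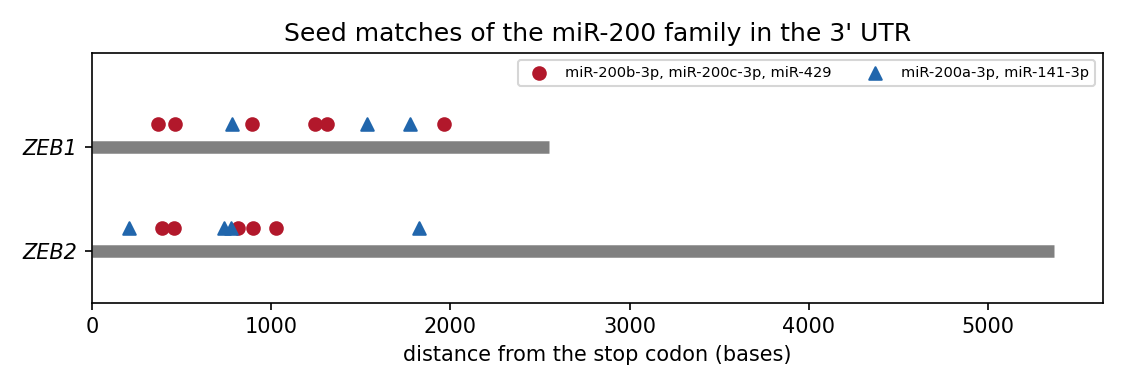
Positions of the seed matches (points, offset above each bar) in the 3' UTR of *ZEB1* and *ZEB2* (grey bars, distance from the stop codon in bases), with circles for the seed of miR-200b-3p, miR-200c-3p and miR-429 and triangles for that of miR-200a-3p and miR-141-3p. Each UTR has 9 matches, and in *ZEB2* all but the last at 1825 bases lie within the first 1029 bases.

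A seed match is a description of the letters, and the miRNAs themselves were not measured by these libraries of polyadenylated RNA. Upstream windows of 250 bases before the start site, taken from RefSeq, were used for *ZEB1*, *ZEB2*, *TWIST2*, *CDH2*, *VIM* and *FN1*, 13 windows in all, 7 of them of *ZEB1*. They were searched for the E-box CACCTG, which is bound by SNAI and ZEB proteins, on both strands (CACCTG or CAGGTG). Of all 35116 windows of this length, 17.5% held a match. Of the 13 member windows, 2 held it (15.4%), a share near that of all windows, and both belong to *ZEB1*. The window of the outermost start site of *ZEB1*, one of these, is shown with its match at -57 to -52 in capitals (GRCh38.p14, plus strand).
ZEB1, chr10:31318167-31318416: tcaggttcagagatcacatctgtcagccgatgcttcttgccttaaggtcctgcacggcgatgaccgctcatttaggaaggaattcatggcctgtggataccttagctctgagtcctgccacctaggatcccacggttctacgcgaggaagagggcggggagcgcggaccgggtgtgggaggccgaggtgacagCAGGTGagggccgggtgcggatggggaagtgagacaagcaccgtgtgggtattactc

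The pattern TGANTCA was searched in the same windows and was found in 6.57% of all of them. It allows any middle base, so that it covers the AP-1 sites bound by FOS and JUN proteins but is wider than these. Of the 13 member windows, 1 held the pattern (7.69%), again near the share of all windows. This was at the inner start site of *CDH2*, as TGAATCA at -102 to -96. Whether FOS or JUN proteins bind this match was not tested.

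Among the 3 pairs of factor genes, the SNAI genes differed the most. *SNAI2* (SLUG), on chromosome 8 from 48917598 to 48921740, had a mean normalized count of 1367 and a level of 627 per kilobase. *SNAI1* (SNAIL), on chromosome 20 from 49982980 to 49988886, had a mean normalized count of 15.01 and a level of 8.80 per kilobase, which is at the 32.6 percentile of all genes. *SNAI2* was thus 71.2-fold above *SNAI1* per kilobase, or 47.3-fold with merged exons and 111-fold with the median coding transcript. *ZEB1* was 133-fold above *SNAI1*. *SNAI1* made up 0.282% of the level summed over the 6 factors.

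The reads behind the mean of *SNAI1* were few enough to be told apart by library. A mean normalized count is the mean over the 6 libraries of whole reads divided by the size factor of their library. Genes read once in a single library gave the 6 size factors, from 0.737 to 1.34. The libraries found in this way have no label, so that they are numbered here by rising size factor and were not assigned to vehicle or DOX. *SNAI1* was read 11, 15, 16, 13, 14 and 22 times in libraries 1 to 6. The normalized counts were 14.9, 18.9, 16.5, 11.2, 12.1 and 16.4. *SNAI1* was thus read in each library, and its highest normalized count was 1.69-fold the lowest. The 91 reads in all have a 95% interval (exact Poisson) from 73.3 to 112, which covers counting error only.

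*TWIST1* and *TWIST2* encode closely related basic helix-loop-helix factors. *TWIST1*, on chromosome 7 from 19020991 to 19117636, had a mean normalized count of 1262 and a level of 774 per kilobase (87.7 percentile). *TWIST2*, on chromosome 2 from 238848032 to 238910534, had a mean normalized count of 300.5 and a level of 224 per kilobase (67.2 percentile). *TWIST1* was 3.46-fold above *TWIST2* per kilobase, or 4.48-fold with merged exons and 8.38-fold with the median coding transcript. The last fold rests on a median length of 589 bases for *TWIST1*. The longest run of bases that their transcripts share is 23, against 20 for *ZEB1* and *ZEB2* and 11 for *SNAI1* and *SNAI2*.

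TWIST proteins bind DNA as dimers with E-proteins. Of all genes of the table, 68.5% reached a mean normalized count of 10, the share against which the counts of the partner lists are to be read. Of 5 partner genes of the TWIST family, 4 were listed, none of them under a mean normalized count of 10. The E-protein genes *TCF3*, *TCF4* and *TCF12* had levels of 522, 261 and 304 per kilobase, and *HAND2*, a competing partner, had 13.5. With the longest coding transcript, the 3 E-protein genes lay between the levels of *TWIST2* and *TWIST1*. Among other transcription factor genes of EMT, *SOX9* and *PRRX1* had levels of 464 and 403 per kilobase, and *TCF3* and *TCF4* belong to this list as well. *FOXC2*, *GSC*, *LEF1* and *KLF8* were low, with mean normalized counts from 0.650 to 2.55.

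SNAI1 and ZEB1 repress their targets through corepressors. All 11 genes of this list had levels above the median of all genes, from 348 per kilobase for *SIN3A* to 11226 for *LOXL2*, with a median of 635. *HDAC1* and *KDM1A*, a deacetylase and a demethylase of histones that SNAI1 recruits, had 1565 and 927 per kilobase. The SNAI1 protein is known to be short-lived, and 7 of 8 genes that act on its turnover reached a mean normalized count of 10, against 68.5% of all genes. *GSK3B*, the kinase that marks SNAI1 for degradation, had 468 per kilobase, and the F-box genes *BTRC*, *FBXW11* and *FBXL14* had 140, 679 and 35.3. Each of these 4 genes was thus above *SNAI1* itself, whereas the kinase gene *PRKD1*, the lowest of the list, was below it at 1.995.

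Of the cadherins, *CDH2* was high and *CDH1* was low. *CDH2*, on chromosome 18 from 27932879 to 28177946, had a mean normalized count of 4093 and a level of 1019 per kilobase (90.7 percentile). *CDH1*, on chromosome 16 from 68737292 to 68835537, had a mean normalized count of 59.6 and a level of 12.4 per kilobase (34.9 percentile). *CDH2* was thus 82.3-fold above *CDH1*, or 48.6-fold with merged exons and 58.2-fold with the median coding transcript.

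The reads of *CDH1* could also be told apart by library. *CDH1* was read 47, 66, 52, 84, 46 and 60 times in libraries 1 to 6, numbered as above. Its normalized counts were 63.8, 83.3, 53.7, 72.5, 39.6 and 44.6, so that each library held *CDH1* reads and libraries 2 and 4 were the highest. The highest normalized count was 2.10-fold the lowest, and the 355 reads in all have an exact Poisson 95% interval from 319 to 394. All other members, at mean normalized counts of 300.5 and above, were not resolved in this way, so that their spread over libraries is not known.

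**Figure D3:**
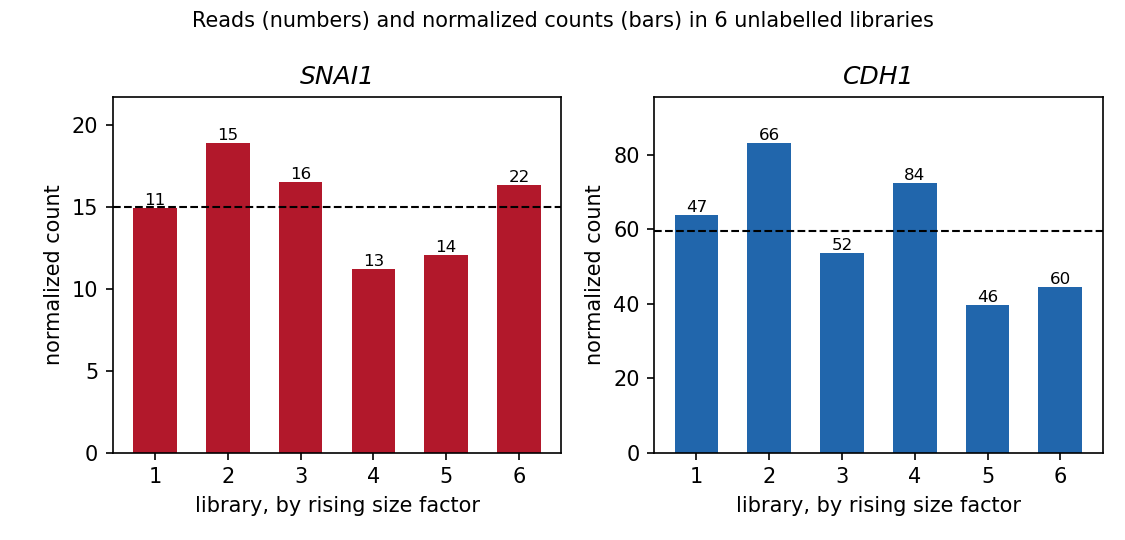
Normalized counts (bars, with the reads as numbers above) of *SNAI1* and *CDH1* in the 6 unlabelled libraries, numbered by rising size factor, with dashed lines at their means of 15.01 and 59.6. *SNAI1* ranges from 11.2 to 18.9 and *CDH1* from 39.6 to 83.3.

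*CDH2* was not the highest cadherin. Of 20 genes with a CDH symbol in the table, a family chosen after its values were seen, *CDH3* (P-cadherin, a basal epithelial cadherin) was the highest at 1547 per kilobase. *CDH2* followed at 1019 and *CDH11*, a mesenchymal cadherin, at 820. *CDH3* was 1.52-fold above *CDH2* and 125-fold above *CDH1*, which was the seventh of the 20, and 12 of the 20 had a mean normalized count under 10. With merged exons, *CDH3* was 2.26-fold above *CDH2* and 110-fold above *CDH1*. With the median coding transcript, these folds were 7.05 and 410. That median takes every annotated coding transcript, short ones included, and whether these are complete was not checked.

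**Figure D4:**
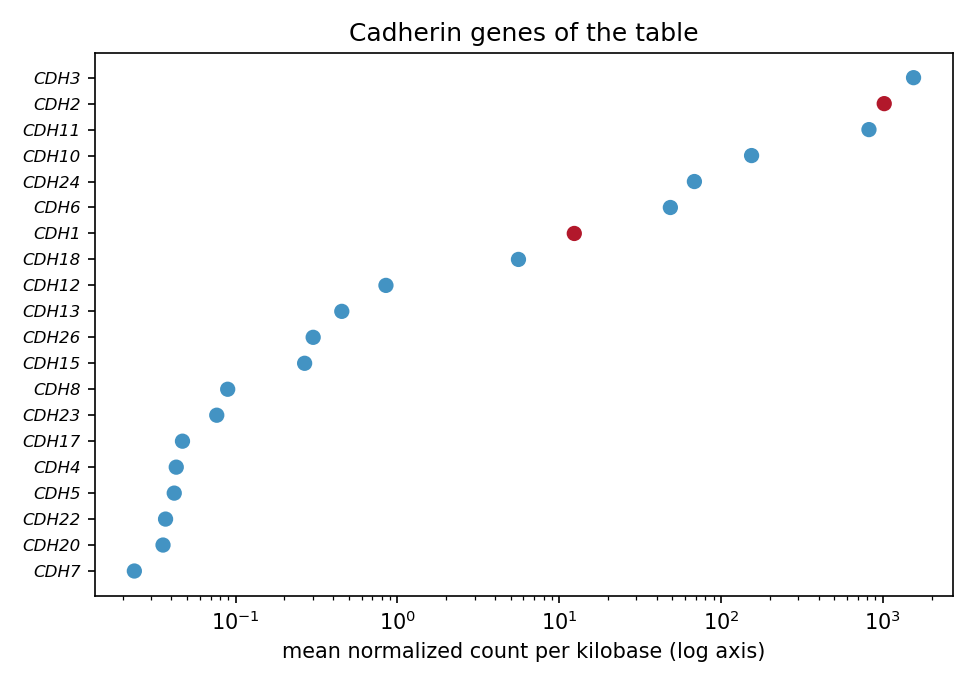
Mean normalized count per kilobase (log axis) of the 20 cadherin genes of the table, with *CDH1* and *CDH2* in red. *CDH3*, *CDH2* and *CDH11* lie at 820 or above and *CDH1* at 12.4.

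Classical cadherins are tied to actin by catenins. Of the 6 catenin genes, *CTNNA1* and *CTNNB1* were above *CDH2*, at 2902 and 2221 per kilobase. *JUP* (plakoglobin) and *CTNND1* (p120) were at 98.7 and 25.4, whereas *CTNNA3* and *CTNNA2*, the alpha-catenins of heart and nerve, had mean normalized counts of 3.75 and 0.210. Exons shared with other genes were sought for the members and *WDR5* only. Whether such overlaps lowered the counts of a catenin gene, such as *CTNND1*, was not tested.

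*VIM*, on chromosome 10 from 17228241 to 17237593, was the highest member, with a mean normalized count of 47782 (rank 29 of all genes) and a level of 17923 per kilobase. Its exons share 656 bases with the antisense gene *VIM-AS1*, which had a mean normalized count of 114. Of 5 genes that encode other intermediate filaments or their linker, *PLEC* and *SYNM* had levels of 708 and 128 per kilobase. *NES*, *DES* and *GFAP*, the filaments of precursor cells, muscle and glia, had mean normalized counts of 2.53, 2.62 and 0.172, and *GFAP* was read once in all 6 libraries together.

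*FN1*, on chromosome 2 from 215360440 to 215436073, had a mean normalized count of 30461 (rank 59) and a level of 3498 per kilobase, so that *VIM* was 5.12-fold above it. *VIM* and *FN1* together held 0.295% of the sum of all mean normalized counts. Of 8 integrin genes whose products bind fibronectin, 7 were listed and 5 reached a mean normalized count of 10, a share near the 68.5% of all genes. *ITGB1*, the common beta chain, was the highest at 11451 per kilobase. Its partner *ITGA5*, which completes the classical fibronectin receptor, had 537, *ITGAV* had 667 and *ITGB6*, the epithelial beta chain, 0.278.

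The other genes of the epithelial and mesenchymal states differed in the same sense as the cadherins. Both lists were chosen with earlier results of these data known, so that they are a description and no independent check. In a list of 20 epithelial genes, the median was 2.48 per kilobase, 10 genes had a mean normalized count under 10 and 4 lay above the median of all genes. In a list of 20 mesenchymal genes, the median was 812, 19 reached a mean normalized count of 10 and the same 19 lay above that median. The median of all genes was 71.5 per kilobase. The mesenchymal genes were led by *SPARC* and *COL1A2*, a matrix glycoprotein and a collagen chain, at 5696 and 4848 per kilobase, and *PDGFRB* was the lowest at 0.819. *CDH1*, with 12.4, was above the median of the epithelial list. Of the factors that maintain the epithelial state, *ESRP1*, *ESRP2*, *GRHL2*, *OVOL1* and *OVOL2* had mean normalized counts of 13.0, 5.18, 6.27, 2.13 and 0.124. *OVOL2* was thus listed at the value of 1 read in all libraries together. The highest epithelial gene was *CDH3*, the only one above the median of the mesenchymal list. *KRT18*, *OCLN* and *DSP*, at 256, 87.6 and 76.7 per kilobase, were the others above the median of all genes.

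**Figure D5:**
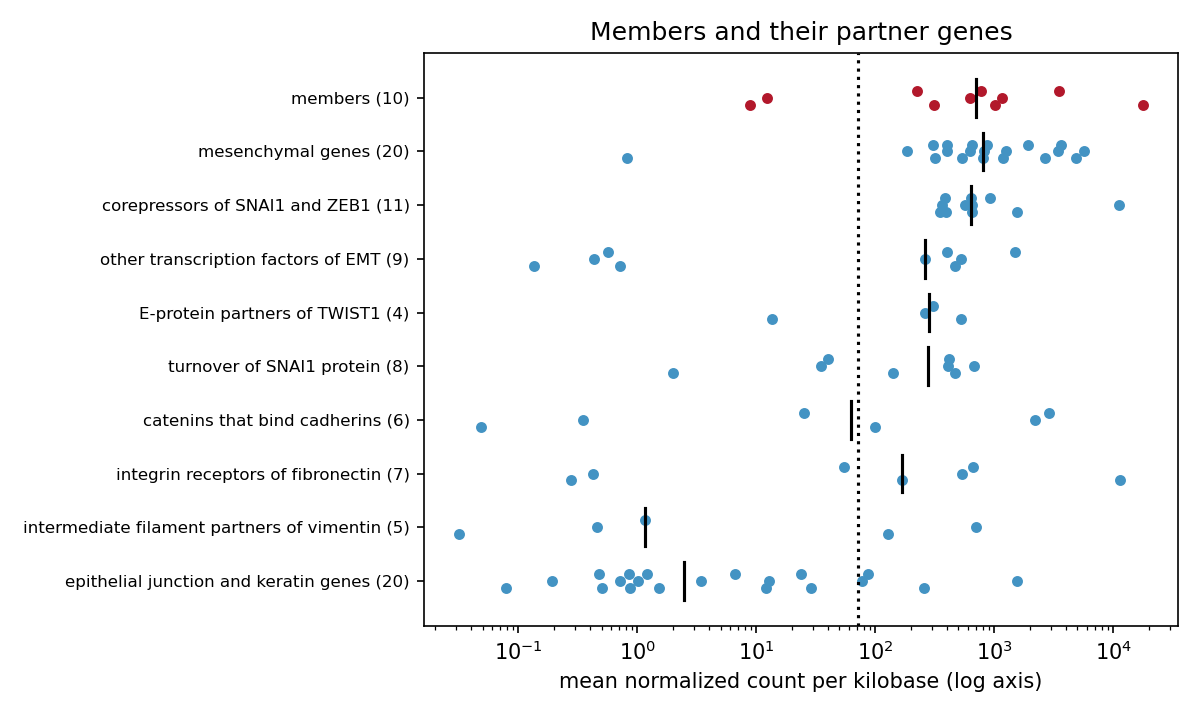
Mean normalized count per kilobase (log axis) of the 10 members (red) and of the genes of 9 partner lists (blue), with the number of genes listed in brackets, black bars for the median of each list and a dotted line for the median of all genes at 71.5. The epithelial list has its median at 2.48 and the mesenchymal list at 812.

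As a check of the cell line, *ESR1* and *PGR*, the hormone receptor genes that a triple-negative line lacks, had mean normalized counts of 0.790 and 0.801, with 5 reads each in the 6 libraries. *ERBB2* had a mean normalized count of 1221. *EPCAM* had 1.30, *KRT8*, *KRT18* and *KRT19* had 57.3, 434.9 and 17.7, and *PTPRC*, *CD68* and *PECAM1*, markers of blood, macrophages and endothelium, had 44.7, 1813 and 2.86. Not all of these markers were low. Per kilobase, *CD68* was at the 90.8 percentile of all genes, *KRT18* at 69.7 and *ERBB2* at 69.6. The targeted gene *WDR5*, on chromosome 9 from 134135365 to 134159968, had a mean normalized count of 1143 over vehicle and DOX libraries together, so that the labels were not checked by its silencing here.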

How the data were processed

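RNA of cultures grown in triplicate was made into stranded mRNA libraries, and per the paper's methods the authors aligned the reads to GRCh38 with STAR and normalized gene counts with DESeq2. Tool versions, the gene counter and filters are not given in the sources used here. The value used (unit signal) was deposited by the authors as the mean over all 6 libraries of counts divided by size factors. The other numeric columns of the deposited table hold the authors' own comparison of DOX with vehicle (a log2 fold change, its standard error, a statistic and p-values) and were not used. The planned count test was not made, since the deposited table holds no counts of single samples. With no such columns, those that could not be matched to a sample numbered 0.

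Symbols were matched to GENCODE 44 on GRCh38, 17729 directly, 192 but for case and 711 through a RefSeq synonym, and 1160 were not matched. Size factors were read from the steps that 1 read makes in low means. Of 400 genes drawn at random below a mean of 10, 400 resolved to exactly 1 set of whole reads. The step was tested on simulated data, in which not every gene near the mean of CDH1 resolved to 1 set. The highest size factor was 1.82-fold the lowest. Totals per library are unknown, and the mean normalized counts sum to 26551206. The members and lists were chosen with earlier results of these data known. The rule named the 10 members, WDR5 and at most 4 examples of each list, with the highest and the lowest, apart from a result that is not reported here. Where more genes of a list are named, and for the CDH family, the miR-200 family and the motifs, the choice was made after values were seen. Python 3.11.15 was used with pandas 2.3.3, matplotlib 3.10.9, numpy 2.4.6 and scipy 1.17.1.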

Additional observations from a re-analysis of the deposited data

How the results depend on the processing

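No paired analysis was possible because the deposited values used here are pooled over all 6 libraries, and leaving out replicates, the other count tests and filters planned for DOX against vehicle were not run for the same reason. The number of members in the top 10% of genes was 4 by mean normalized count and 3 among genes of at least 10. Per kilobase it was 4 with the longest coding transcript, 3 with merged exons and 3 with the median coding transcript. On the log2 scale, the differences per kilobase between *CDH2* and *CDH1*, *ZEB1* and *ZEB2*, *TWIST1* and *TWIST2*, and *SNAI2* and *SNAI1* were 6.36, 1.91, 1.79 and 6.15. They were 5.60, 2.89, 2.16 and 5.56 with merged exons and 5.86, 0.58, 3.07 and 6.79 with the median coding transcript, so that the 4 directions were the same. A pseudocount of 1 gave 6.34 for the cadherins and 6.06 for the SNAI genes and left the ZEB and TWIST pairs at 1.91 and 1.79. With merged exons, the median was 1.85 for the epithelial and 476 for the mesenchymal list. The shifts with merged exons and with the median coding transcript follow from the lengths assumed. The median takes every annotated coding transcript, and whether these are complete was not checked. The percentile of a single member moved by up to 10.5 points with merged exons, 9.31 points with the median coding transcript and 30.4 points among genes of at least 10. Few reads limit *SNAI1* and *CDH1*, and the spread of the other members over libraries is unknown.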

Other observations

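Some epithelial genes of low level were uneven over the 6 unlabelled libraries, and their reads are given as values, chosen after they were seen. *CLDN7*, a tight junction claudin, had normalized counts of 44.8, 32.8, 7.24, 38.0, 9.47 and 7.44 in libraries 1 to 6. *ESRP1*, an epithelial splicing regulator, was read 16, 19, 0, 24, 11 and 3 times. *CLDN4*, another claudin, had normalized counts of 31.2, 34.1, 18.6, 42.3, 18.1 and 20.1. For these 3 genes libraries 1, 2 and 4 were the highest, and the same libraries held the 3 highest normalized counts of *CDH1*. *GRHL2*, a factor that maintains the epithelial state, was read 0, 2, 9, 3, 14 and 15 times, so that libraries 1, 2 and 4 were the lowest. *KRT8*, a keratin of simple epithelium, had normalized counts of 67.9, 69.4, 47.5, 54.35, 54.23 and 50.6, so that libraries 1 and 2 were the highest and libraries 4 and 5 were close to each other. *KRT19*, another keratin, had normalized counts of 19.0, 27.8, 13.4, 16.4, 18.9 and 10.4, so that library 5 was above library 4. These orders of the libraries are given as values only. No test between the libraries was made, and none of them was assigned to vehicle or DOX.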
